A study of Mus musculus with 136 samples.

Results

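ATP-binding cassette (ABC) transporter genes were taken as all genes whose symbol consists of Abc, a subfamily letter from a to g and a number, with or without a further letter. This rule found 50 of the 47643 genes in the count table, and no measured value entered the choice. RNA of the embryo and RNA of its visceral yolk sac were sequenced separately for 66 concepti of the non-obese diabetic (NOD) mouse, a strain whose females can become diabetic without treatment, dissected at E8.5 from chow-fed dams. At the earlier stage, defined here by 5 or 6 pairs of somites, there were 17 concepti of 10 normal pregnancies and 17 concepti of 9 diabetic pregnancies. At the later stage, with 7 to 9 pairs, 7 normal pregnancies gave 16 concepti and 6 diabetic pregnancies gave another 16, of which the litter D24M15 alone gave 7. Maternal blood glucose was 105 to 164 mg/dl in normal and 423 to 595 mg/dl in diabetic pregnancies, with 1 diabetic litter labelled only as above a limit. A yolk sac was given the stage of the embryo from its own conceptus.

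ABC transporters use the energy of ATP to move lipids, sterols, bile salts, conjugated toxins, peptides, heme precursors and vitamins across the plasma membrane or the membranes of lysosomes, peroxisomes and mitochondria. Members of subfamilies E and F have the ATP-binding parts but no membrane-spanning part, and act on ribosomes instead. The visceral yolk sac is the nutritive layer around the early embryo: its visceral endoderm absorbs and digests maternal material and secretes lipoproteins, and its mesoderm makes the first red blood cells, so that transporters known from liver, intestine and erythroid cells have a counterpart there.

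Libraries were counted at the 3′ end of transcripts with 1 tag per molecule, so a level does not scale with transcript length. Levels are normalized counts, that is, counts divided by a size factor for each library. Library totals lay between 1017901 and 5658850 counts, with a median of 2302819. The 10 visceral endoderm markers summed to 10370 to 53510 normalized counts in yolk sacs and 96.3 to 3362 in embryos, and the 5 neural markers reached group medians of 1103 to 1365 in embryos and 10.1 to 24.7 in yolk sacs. The markers thus followed the tissue labels by group median, and the neural genes Sox1 and Pax6 had means under 1 in yolk sacs. Single neural sums reached up to 97.21 in yolk sacs. The 5 cardiac markers had group medians of 512.8 to 979.4 in embryos and 39.91 to 52.1 in yolk sacs. Their sums reached 572.5 in earlier normal and 400.5 in earlier diabetic yolk sacs. Embryos of the same stage and condition had 280.7 to 839.1 and 88.04 to 712.5. How much embryo tissue the yolk sac libraries held was not tested. In 4 libraries the correlation with the median profile of their tissue was below 0.92, against a median of 0.973 in yolk sacs and 0.974 in embryos. These were the yolk sac (0.848, also the smallest library) and the embryo (0.902) of the later diabetic conceptus D28M36C, and the yolk sacs of the earlier normal conceptus N28M06A (0.897) and of the earlier diabetic conceptus D28M02G (0.906). The sex label differed between embryo and yolk sac for 2 concepti.

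Expression was detected for 49 of the 50 ABC transporter genes, the exception being Abcb5. A mean of at least 10 normalized counts was reached by 16 members in embryos, by 20 in yolk sacs and by 21 in either tissue, while 15 members had a mean under 1 in both, Abcb5 included. The members together made up a group median of 646 to 737 CPM (counts scaled by the library total) in embryos and of 1294 to 1476 in yolk sacs. The 4 most abundant members were Abce1, Abcf1, Abcg2 and Abcd3 in both tissues, in a different order. In embryos the first rank belonged to Abce1, which separates the subunits of terminated ribosomes, with a mean of 395 normalized counts over 66 libraries. It was followed by Abcf1, a factor that associates with ribosomes and translation initiation, with 285, by Abcg2 with 199.99, Abcd3 with 171, Abcf2 with 107 and Abcc5 with 82.2. In yolk sacs Abcg2, an exporter of urate, porphyrins and many drugs at the apical membrane, came first with a mean of 583, ahead of Abce1 with 528 and of Abcd3, the major peroxisomal membrane transporter, with 420. Abcf1 with 346, Abcc5 with 272 and Abcc4 with 239 came next. Subfamilies E and F accounted for 24.9% and 26.8% of all member counts in embryos and for 16.1% and 14.9% in yolk sacs. Subfamily C, the conjugate exporters, accounted for 11% in embryos and 21.3% in yolk sacs.

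**Figure D1:**
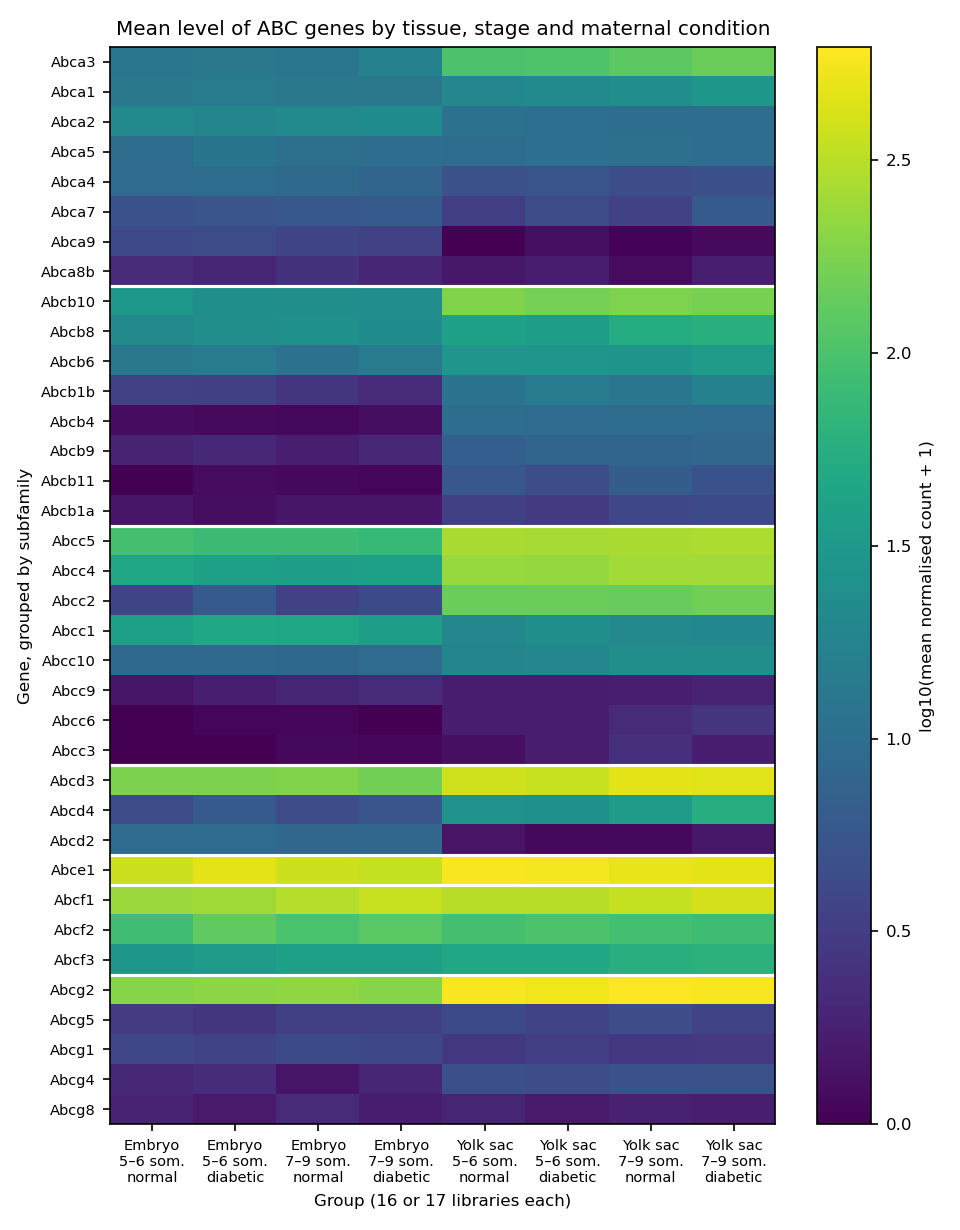
Mean level of members that reach a mean of 1 normalized count in a group, as log10(mean + 1) in colour, in the 4 embryo and the 4 yolk sac groups, ordered by subfamily. Abce1, Abcf1, Abcg2 and Abcd3 are high in every group, and Abcc2, Abca3 and Abcb10 stand out in yolk sacs.

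Much of the family was at the edge of detection. The cholesterol exporter of macrophages Abcg1 had means of 2.999 in embryos and 1.957 in yolk sacs. The sterol exporter pair Abcg5 and Abcg8, which overlap each other on opposite strands, had means of 2.12 and 0.829 in embryos and of 3.03 and 0.772 in yolk sacs. The sulfonylurea receptors Abcc8 and Abcc9, regulatory subunits of ATP-sensitive potassium channels, stayed under 1 in both tissues. At this depth a change in these genes could not be measured, and they did not pass the filter on low counts in any comparison between diabetic and normal pregnancies.

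The tissues were compared first, in each conceptus stage separately. At the earlier stage 21 members passed the filter on low counts and 18 of them differed between yolk sac and embryo at an adjusted p under 0.05 (edgeR's quasi-likelihood test with Benjamini-Hochberg adjustment over all genes tested), where 79.2% of all tested genes did. Of these, 16 were higher in the yolk sac, a direction taken by 39.4% of all tested genes, and 2 were lower, a direction taken by 39.8%. At the later stage 20 of 22 members differed, with 81.3% over all genes. There 17 were higher in the yolk sac (38.7% of all genes) and 3 lower (42.6%). The median log2 difference over the tested members was 1.16 at the earlier stage and 1.27 for the later libraries, against -0.0029 and -0.042 over all genes tested. Most members that passed the filter were thus higher in the yolk sac. The filter admits a member that is high in a single tissue, such as Abcc2. Members under it went in both directions, with Abcd2 and Abca9 higher in embryos and Abcb4 and Abcb11 higher in yolk sacs.

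Among members that passed the filter, differences between the tissues at the earlier stage were greatest for Abcc2, Abca3 and Abcb10, and among later libraries for Abcc2, Abcd4 and Abca3. Abcc2 exports bilirubin glucuronides and glutathione conjugates at the apical membrane of hepatocytes and absorptive epithelia. Its level at the earlier stage was between 0 and 22.2 normalized counts in embryos with a median of 2.25, and between 89.5 and 193 in yolk sacs with a median of 146 (n = 34 each). No embryo came near the lowest yolk sac, and the log2 difference was 5.24 ± 0.16 (SE; edgeR adjusted p = 2.66e-43). At the later stage the medians were 1.31 and 134 and the difference 5.57 ± 0.22 (n = 32 each; edgeR adjusted p = 2.55e-35). Here the yolk sac of D28M36C, with 589, stood above all others. Without the libraries least like their tissue the highest later yolk sac was at 185.

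Abca3, which loads phospholipids into lysosome-related storage organelles and is known from lung surfactant, had 4.04 to 26.8 normalized counts in earlier embryos with a median of 11.4. Earlier yolk sacs had 43.4 to 179 with a median of 95.4, so the tissues did not overlap. The log2 difference was 3.18 ± 0.12 (SE; edgeR adjusted p = 1.49e-37), and 3.31 ± 0.09 at the later stage (edgeR adjusted p = 5.25e-46). Abcb10 lies in the inner mitochondrial membrane and is needed for heme synthesis in red cell precursors. Earlier embryos had 15.1 to 38.8 normalized counts of it with a median of 26.7, and earlier yolk sacs had 48.2 to 342 with a median of 169. These ranges were separate as well, with log2 differences of 2.75 ± 0.09 (edgeR adjusted p = 8.79e-42) and 2.94 ± 0.10 (edgeR adjusted p = 3.11e-40) at the earlier and the later stage.

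The 250 bases upstream of the RefSeq start of these 3 genes are shown. These genes had the largest tissue differences at the earlier stage among members that passed the filter. Abcc2 lies on chromosome 19 at 43782192 to 43840740 on the plus strand, Abca3 on chromosome 17 at 24351950 to 24410201 on the plus strand and Abcb10 on chromosome 8 at 123952459 to 123983122 on the minus strand (mm10, GENCODE M21). The windows come from RefSeq on GRCm38.p6 and are chr19:43782058-43782307 (plus strand), chr17:24351773-24352022 (plus strand) and chr8:123983123-123983372 (minus strand), each written 5′ to 3′ along its gene. For Abcc2 and Abca3 the RefSeq start lies downstream of the GENCODE start, so part of each window lies inside the GENCODE gene. Capitals mark motif matches found by a search on both strands, the antioxidant response element in Abcc2 and the NRF1 consensus in Abcb10.
Abcc2: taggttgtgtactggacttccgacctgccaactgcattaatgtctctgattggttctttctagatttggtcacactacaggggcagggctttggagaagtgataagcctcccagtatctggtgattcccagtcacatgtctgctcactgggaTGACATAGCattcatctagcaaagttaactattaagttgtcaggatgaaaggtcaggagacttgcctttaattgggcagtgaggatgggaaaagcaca
Abca3: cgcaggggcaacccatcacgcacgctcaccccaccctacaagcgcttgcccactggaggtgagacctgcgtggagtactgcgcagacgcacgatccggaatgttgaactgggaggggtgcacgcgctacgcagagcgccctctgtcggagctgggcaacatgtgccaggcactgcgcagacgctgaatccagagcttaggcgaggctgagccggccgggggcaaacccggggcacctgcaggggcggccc
Abcb10: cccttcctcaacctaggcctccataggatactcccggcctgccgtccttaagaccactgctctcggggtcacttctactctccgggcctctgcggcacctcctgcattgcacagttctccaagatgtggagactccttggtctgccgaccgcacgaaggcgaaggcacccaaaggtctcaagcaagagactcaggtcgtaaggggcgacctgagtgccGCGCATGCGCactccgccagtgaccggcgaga
The Abcc2 match began 98 bases and the Abcb10 match 32 bases before the RefSeq start, and Abca3 had none. The Abcc2 match lies inside the GENCODE gene. The searched motifs were present in the following shares of all 32851 windows of the same length: AGATAA (bound by erythroid and endodermal zinc-finger factors) in 9.99%, CAAAGTCCA (HNF4) in 0.384%, TGACNNNGC (antioxidant response element) in 10.2%, the NRF1 consensus in 3.74%, the HNF1 consensus in 0.00913% and the CLEAR element of lysosomal genes in 0.24%. Among 45 windows of the 38 members in the table, 5 held AGATAA, 4 held TGACNNNGC, 3 held the NRF1 consensus and none held the others. Such matches describe the letters of the window and do not show that a factor binds.

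**Figure D2:**
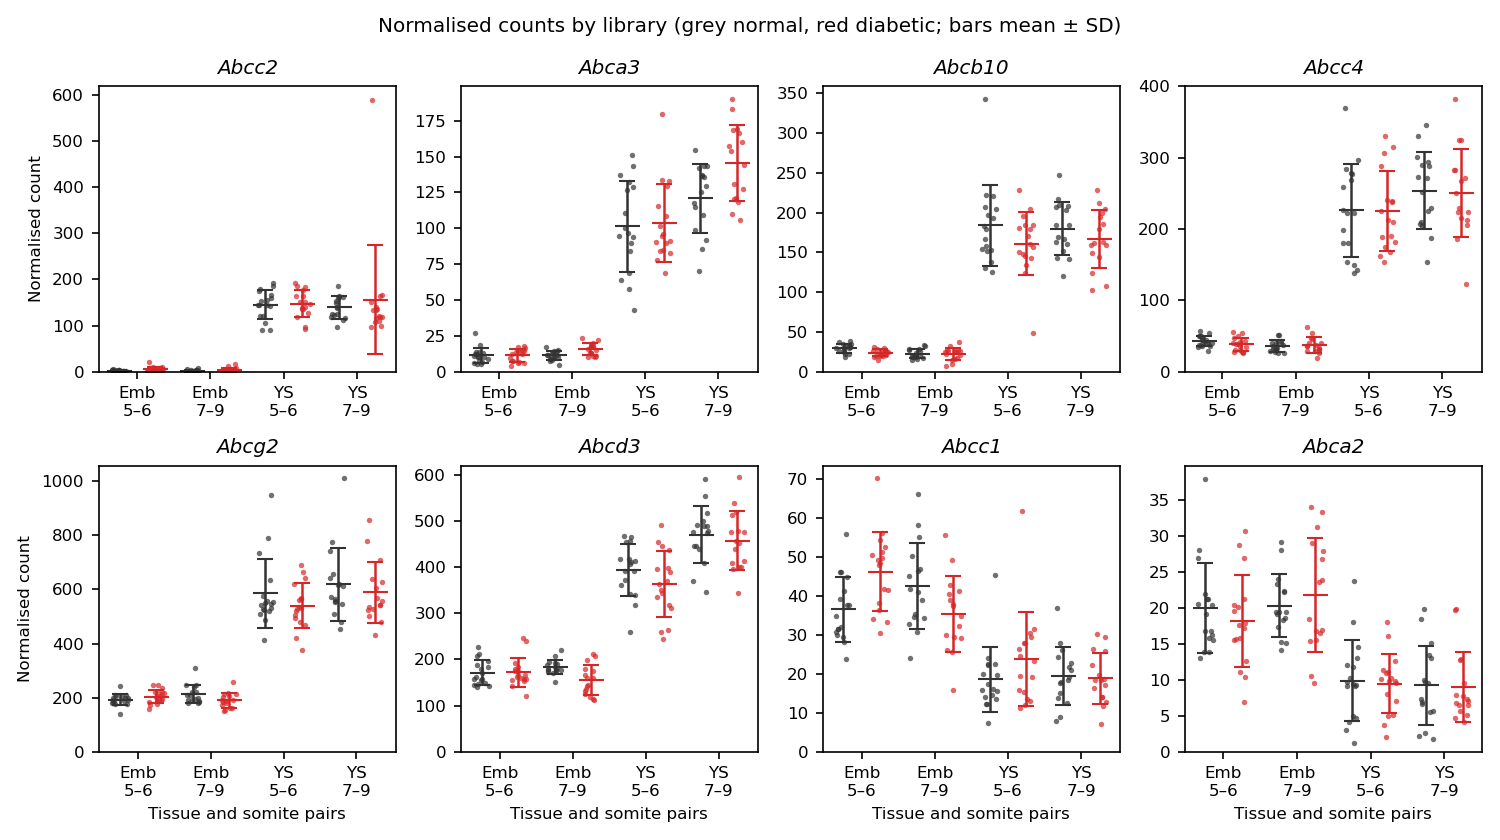
Normalized counts of 8 ABC transporter genes in every library (linear axes from 0), by tissue (Emb, embryo; YS, yolk sac) and number of somite pairs, with grey points for normal and red points for diabetic pregnancies and bars for the mean ± SD. Abcc2, Abca3, Abcb10 and Abcg2 separate the tissues, while normal and diabetic libraries of a tissue overlap for each gene shown.

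The other conjugate exporters differed less than Abcc2 and not all in one direction. Abcc4, an exporter of cyclic nucleotides and prostaglandins, had a median of 40.4 normalized counts in earlier embryos (26.6 to 57.5) and 223 in earlier yolk sacs (139 to 370), with a log2 difference of 2.53 ± 0.09 (SE; edgeR adjusted p = 5.88e-40). Abcc5, a relative with similar substrates, had medians of 84.1 (61.7 to 111) and 268 (181 to 359), a log2 difference of 1.69 ± 0.06. Neither gene's tissues overlapped at either stage. Abcg2 also separated the tissues completely, with 139 to 246 in earlier embryos and 376 to 950 in earlier yolk sacs and a log2 difference of 1.57 ± 0.06 (edgeR adjusted p = 2.37e-38). Abcc10, a broad exporter of amphipathic compounds, was higher in the yolk sac by 1.19 ± 0.11 on the log2 scale with overlapping ranges.

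Abcc1 went the other way. It exports leukotriene C4 and glutathione conjugates, usually at the basolateral side. Its medians were 40.2 normalized counts in earlier embryos (23.8 to 70.3) and 19.4 in earlier yolk sacs (7.50 to 61.9), and its log2 difference, yolk sac minus embryo, was -0.92 ± 0.11 (SE; edgeR adjusted p = 2.62e-11). Among later libraries it was -0.999 ± 0.11 (edgeR adjusted p = 1.41e-12). The ranges of the tissues overlapped at both stages.

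Members that carry lipids or vitamins, many of them in lysosomes and peroxisomes, went in both directions. Abcd4, which takes part in the release of cobalamin from lysosomes, had a median of 3.89 normalized counts in earlier embryos (0 to 12.8) and 23.8 in earlier yolk sacs (12.4 to 45.5), with a log2 difference of 2.64 ± 0.15 (SE; edgeR adjusted p = 8.66e-27). Among later libraries the difference was 3.38 ± 0.20, or 3.21 without the libraries least like their tissue, since the yolk sac of D28M36C had 281 where the others reached at most 56.2. Abcd3, which carries branched-chain acyl-CoA and bile acid precursors into peroxisomes, had medians of 164 and 390 at the earlier stage and a log2 difference of 1.2 ± 0.06, and its tissues were separate at the later stage. Abca1, which passes cholesterol to apolipoprotein A-I, was higher in the yolk sac by 0.69 ± 0.12 and 1.12 ± 0.11 on the log2 scale at the earlier and the later stage.

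Others were higher in the embryo. Abca2, an endolysosomal lipid transporter abundant in neural tissue and oligodendrocytes, had medians of 17.8 normalized counts in earlier embryos and 9.71 in earlier yolk sacs, a log2 difference of -0.89 ± 0.14 (SE; edgeR adjusted p = 8.90e-08). Abcd2, a peroxisomal transporter of fatty acyl-CoA, was under the filter in the comparison of tissues. It had 2.13 to 18.2 normalized counts in earlier embryos with a median of 8.56, and 0 in 27 of 34 earlier yolk sacs with at most 3.14 in the rest. In the test without the filter its log2 difference, yolk sac minus embryo, was -4.47 among earlier and -4.15 among later libraries. For Abca9, a member of a lipid transporter cluster, the same test gave -3.98 and -3.43, from means of 3.32 and 0.144 at the earlier stage. These levels rest on few molecules per library. Abca5, a lysosomal member, had medians of 8.92 and 8.95 at the earlier stage and did not pass the test at either stage.

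Mitochondrial members other than Abcb10 differed in size. Abcb8, a mitochondrial inner membrane transporter linked to iron and potassium handling, had medians of 19.6 normalized counts in earlier embryos and 36.6 in earlier yolk sacs, with log2 differences of 0.88 ± 0.09 and 1.26 ± 0.09 (SE) at the earlier and the later stage. Abcb6, a porphyrin transporter, was higher in the yolk sac by 1.16 ± 0.12 and 1.28 ± 0.14. Its counts are uncertain, because 82.9% of the 50-base windows at its 3′ end also belong to the overlapping gene Gm29253.

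Transporters of the bile canaliculus were found at low levels in the yolk sac. Abcb4, which flips phosphatidylcholine into bile, was at 0 in 28 of 34 earlier embryos and had 1.86 to 17.6 normalized counts in earlier yolk sacs with a median of 9.44. Abcb11, the bile salt export pump, was at 0 in 30 of 34 earlier embryos and had a median of 3.99 in earlier yolk sacs (0.815 to 9.10). Both were tested only without the filter on low counts, where the log2 differences were 4.93 and 4.57 among earlier and 4.59 and 4.53 among later libraries. Abcb1b, a P-glycoprotein that exports many drugs, passed the filter and was higher in the yolk sac by 2.34 ± 0.17 and 3.07 ± 0.25 (SE) on the log2 scale, and 17.4% of its 3′-end windows also occur in its paralog Abcb1a. For Abcb9, a lysosomal peptide transporter, the differences without the filter were 2.65 and 2.84. Over all members that test called 33 of 49 at the earlier stage (47% of all genes) and 37 of 49 at the later stage (50.6%), and DESeq2 called 30 and 33 (60.6% and 68.2% of all genes).

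The ribosome-associated members differed between the tissues by less than 1 on the log2 scale. Abce1 was higher in the yolk sac by 0.51 ± 0.09 and 0.42 ± 0.07 (SE) on the log2 scale at the earlier and the later stage. Abcf1 was higher by 0.43 ± 0.10 and 0.22 ± 0.10, and Abcf3, implicated in translational control, by 0.67 ± 0.07 and 0.64 ± 0.09. Abcf2 did not differ at the earlier stage by the test, with -0.04 ± 0.11 (edgeR adjusted p = 0.758). At the later stage it was lower in the yolk sac by -0.31 ± 0.09 (edgeR adjusted p = 0.00177). For each of the 4 genes the ranges of the tissues overlapped.

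**Figure D3:**
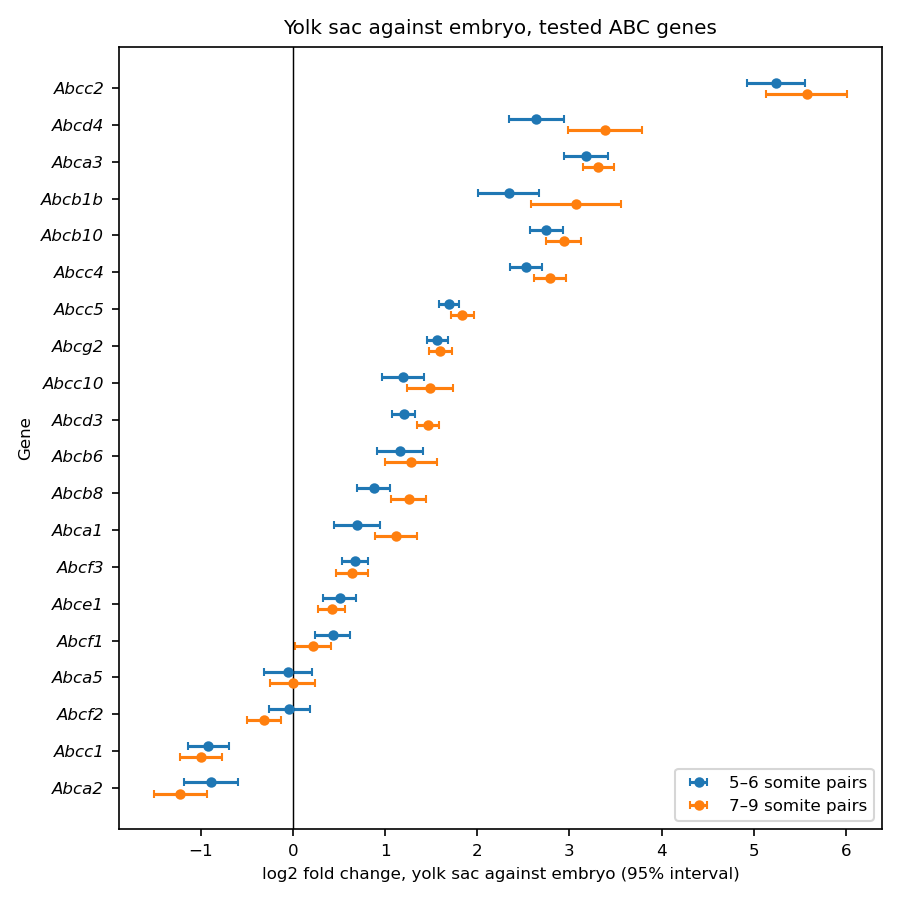
Log2 difference between yolk sac and embryo for tested ABC transporter genes at the earlier and the later stage, with 95% intervals from edgeR. Abcc2 lies above 5 on this scale at both stages, and Abcc1 and Abca2 lie below 0.

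Every embryo library held transcripts of visceral endoderm markers, from 96.3 to 3362 normalized counts in sum. Embryo levels of members with a strong excess in the yolk sac were set beside these markers. Whether such transcripts came from yolk sac left on the embryos or from the embryos' own cells was not tested. The mean level in embryos as a share of that in yolk sacs was, for the earlier and the later stage in turn, 2.7% and 1.9% for Abcc2, 2.4% and 2.6% for Abcb4 and 2.4% and 2.4% for Abcb11. For the 10 visceral endoderm markers, all of them above a mean of 1 in embryos, the share was 1.58% to 4.87% at the earlier stage with a median of 2.80%, and 1.30% to 3.32% at the later stage with a median of 1.99%. Abca3 at 11.3% and 10.2%, Abcb10 at 15.5% and 13.1% and Abcc4 at 18.0% and 14.6% were above the range of the markers. Across the embryos of a group, the log2 level of Abcc2 was set beside the mean of the markers' log2 levels. Pearson's r was 0.626 and 0.711 in earlier normal and diabetic embryos and 0.584 and 0.752 in later ones (n = 17, 17, 16 and 16; permutation tests, adjusted p over 8 relations 0.00976, 0.00336, 0.0217 and 0.00336). Spearman's rho was 0.591, 0.699, 0.422 and 0.683 (permutation tests, adjusted p = 0.0232, 0.0184, 0.12 and 0.02). Without the 2 embryos farthest from the median of this marker mean, r was 0.561, 0.578, 0.321 and 0.558. It was lower in each group, and in later normal embryos the relation depended most on those samples. Leaving out the embryos most extreme in the markers narrows their range, which can by itself lower r. Within litters r was 0.667 to 0.773. Among the other members, the 13 that were higher in the yolk sac with an embryo mean of at least 5 were compared with the markers in the same 4 groups, and none of the 52 correlations passed the adjusted threshold (r from -0.669 to 0.658, median 0.0761). These were adjusted over 52 tests and those of Abcc2 over 8, so the adjusted p cannot be set against each other. The lowest unadjusted p of the 52 was 0.00337 (permutation test), for Abcc4 in earlier normal embryos with r of -0.669. For Abcc2 in the same embryos it was 0.0061 (permutation test).

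In yolk sacs the log2 level of Abcb10 was set beside the mean of the log2 levels of 5 primitive erythroid markers. In normal pregnancies r was 0.684 in earlier and 0.731 in later yolk sacs (n = 17 and 16; permutation tests, adjusted p = 0.00336 for each), and rho was 0.598 and 0.65 (permutation tests, adjusted p = 0.0232 and 0.0205). In diabetic pregnancies r was 0.328 and 0.259 (permutation tests, adjusted p = 0.235 and 0.335) and rho 0.525 and 0.306 (permutation tests, adjusted p = 0.0429 and 0.249). Without the 2 libraries farthest from the median of this marker mean, r was 0.529 and 0.676 in normal and 0.22 and 0.28 in diabetic pregnancies. Within litters it was 0.768, 0.906, 0.363 and 0.668 in earlier and later normal and earlier and later diabetic ones. Whether normal and diabetic pregnancies differ in this relation was not tested. No other member was set beside the erythroid markers, so the relation is not shown to be particular to Abcb10. The relations of Abcc2 and of Abcb10 were chosen after the data had been seen. In bulk tissue, fewer cells of a type and less RNA per cell cannot be told apart.

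Stage was compared next within each tissue. In embryos 2 of 20 tested members differed between the later and the earlier stage, with 30.8% over all genes tested. Both belonged to subfamily F and both rose, a direction taken by 15% of all genes. Abcf1 rose from a median of 226 normalized counts (147 to 391) to 317 (211 to 636), a log2 difference of 0.46 ± 0.09 (SE; edgeR adjusted p = 7.42e-05), and Abcf3 rose from 29.2 (17.4 to 41.4) to 36.3 (22.8 to 68.8), a log2 difference of 0.37 ± 0.09 (edgeR adjusted p = 5.75e-04). The ranges of the stages overlapped for both. Abcf1 and Abcf3 also passed without the 3 embryos richest in visceral endoderm transcripts, all of them later diabetic ones. In that setting Abcb10 at -0.25, Abcc4 at -0.21 and Abcc5 at -0.18 on the log2 scale passed in addition (edgeR adjusted p = 0.0424, 0.0408 and 0.0241). The share of all genes called in it is not given here.

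In yolk sacs 10 of 23 tested members differed by stage, with 40% over all genes. Of these, 9 rose, a direction taken by 21.7% of all genes, and 1 fell, a direction taken by 18.3%. The median log2 difference over the members was 0.12, against 0.0087 over all genes. Peroxisomal and lysosomal members were among those that rose, namely Abcd3 by 0.31 (edgeR adjusted p = 2.02e-05), Abcd4 by 0.68 (edgeR adjusted p = 2.97e-04) and Abca3 by 0.38 (edgeR adjusted p = 2.90e-04). Abcd4 rose by 0.47 without the libraries least like their tissue. Abca1, the cholesterol exporter, rose by 0.41, Abcc10 by 0.35, Abcf3 by 0.39 and Abcf1 by 0.30. The ribosome recycling factor Abce1 fell by 0.22 (edgeR adjusted p = 0.0228). Abcc2, Abcb10 and Abcg2, which are prominent in the yolk sac, were not called.

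Abcb8 had the strongest evidence of a stage difference in the yolk sac, 0.57 ± 0.08 (SE; edgeR adjusted p = 9.01e-08). Its level was 20.8 to 57.3 normalized counts with a median of 36.6 at the earlier stage and 32.8 to 78.3 with a median of 58.4 at the later stage, so the ranges overlapped. By somite number its mean was 37.6 ± 8.80 (SD, n = 24) with 5 pairs, 36.4 ± 7.22 (n = 10) with 6, 53 ± 10.9 (n = 11) with 7, 55.8 ± 15.8 (n = 13) with 8 and 55.8 ± 11.8 (n = 8) with 9. The means thus stepped up between 6 and 7 pairs and were level on either side. Abcd3 had means of 376 ± 58.2, 386 ± 82.3, 449 ± 72.8, 457 ± 63.7 and 496 ± 32.0 over the same somite numbers. The summed visceral endoderm markers had medians of 22430 and 20300 in earlier normal and diabetic yolk sacs and of 32280 and 31450 in later ones. The summed erythroid markers had medians of 8642 and 8426 and then of 18130 and 18270. The part of these cell types in the stage differences was not tested.

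**Figure D4:**
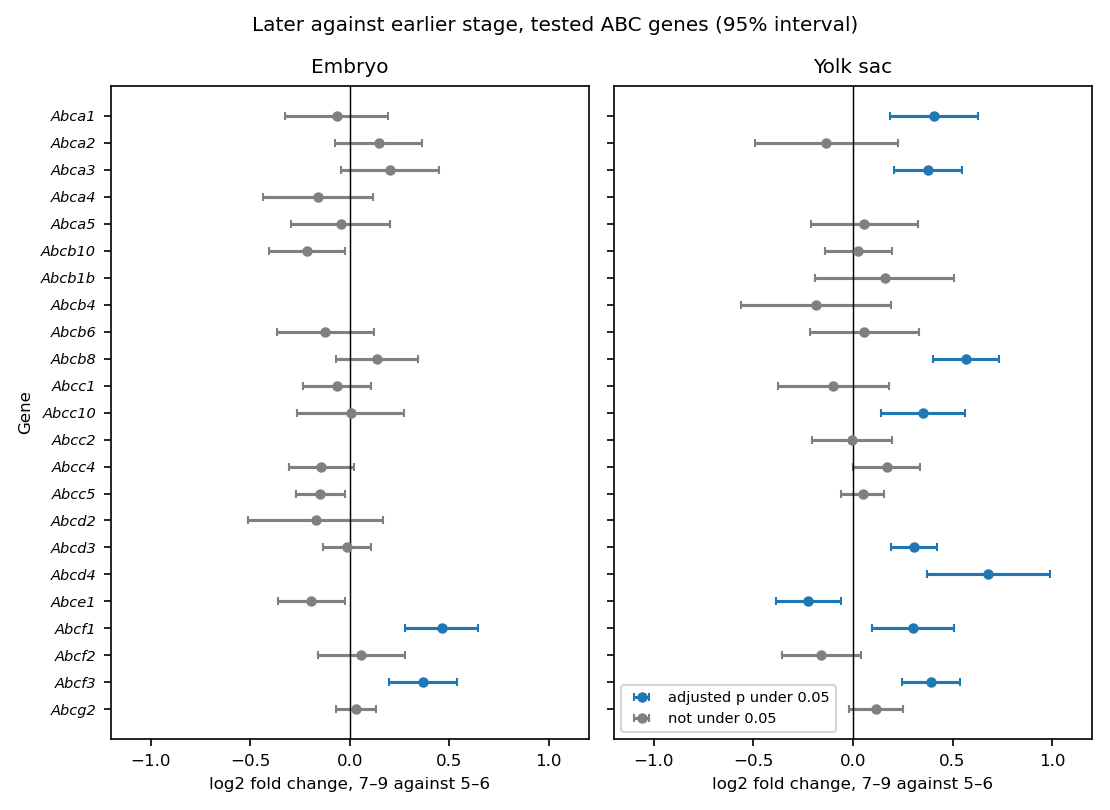
Log2 difference between the later and the earlier stage for tested ABC transporter genes in embryos and in yolk sacs, with 95% intervals from edgeR. In embryos Abcf1 and Abcf3 rose, and in yolk sacs Abcb8, Abcd3, Abcd4 and others rose while Abce1 fell.

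A test of the difference between these stage effects called 2 of 25 members, with 3.23% over all genes and 1.74% over all genes in the same direction. The yolk sac's excess grew with stage for Abcd3, by 0.32 ± 0.08 (SE; edgeR adjusted p = 0.0103), and for Abcb8, by 0.43 ± 0.13 (edgeR adjusted p = 0.0415). Abcd3 lies on chromosome 3 at 121758774 to 121815302 on the minus strand and Abcb8 on chromosome 5 at 24393663 to 24410054 on the plus strand. Embryo medians of Abcd3 were 164 and 176 normalized counts at the earlier and the later stage, where yolk sac medians were 390 and 475. Without the libraries least like their tissue the value for Abcb8 was 0.38 (edgeR adjusted p = 0.0563), and with litters as a random block it did not pass the threshold in limma either. Without the filter on low counts neither gene passed, with 0.30 for Abcd3 and 0.41 for Abcb8 (edgeR adjusted p = 0.0671 and 0.127).

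The maternal condition was the contrast for which the series was made, and no ABC transporter gene passed the test in any of its 4 comparisons. In earlier embryos 0 of 20 tested members were called by edgeR, with 1.46% over all genes, and 5 had an unadjusted p under 0.05. In later embryos 0 of 16 were called, with 9.09% over all genes, and 6 had an unadjusted p under 0.05. Yolk sacs gave 0 of 19 at the earlier stage (0% of all genes, with 0 members at an unadjusted p under 0.05) and 0 of 21 at the later stage (0.0194% of all genes, with 4 members at an unadjusted p under 0.05). DESeq2 called 1 member, Abcc1, in earlier embryos (2.94% of all genes) and 0 in later embryos (8.19%), earlier yolk sacs (0.0255%) and later yolk sacs (0.258%), and limma with litters as a random block called 0 in all 4. The 95% intervals of edgeR lay within a 2-fold difference for all 20, 16 and 19 tested members of the first 3 comparisons and for 20 of 21 in later yolk sacs, where that of Abcd4 reached 1.02 on the log2 scale. Differences below this size remain possible.

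The members nearest to the threshold in earlier embryos were Abcf2, Abcc1 and Abcb10. Abcf2 lies on chromosome 5 at 24565345 to 24577467 on the minus strand. It had 40.1 to 166 normalized counts with a median of 76.2 in normal and 58.1 to 272 with a median of 129 in diabetic pregnancies (n = 17 each). The ranges overlapped, with a log2 difference of 0.58 ± 0.18 (SE; edgeR adjusted p = 0.0754). Means of 8 of 9 diabetic litters lay above the normal litters' median (two-sided exact permutation test over litters, p = 0.0562). Abcc1 on chromosome 16, at 14361558 to 14475737 on the plus strand, had 23.8 to 56.0 with a median of 34.8 in normal and 30.5 to 70.3 with a median of 48.6 in diabetic pregnancies, a log2 difference of 0.35 ± 0.11 (edgeR adjusted p = 0.0810). Here 8 of 9 diabetic litters lay above the normal median (exact permutation test, two-sided p = 0.0129, the lowest of 3 such tests in this group). Abcb10 was lower in diabetic pregnancies, with medians of 29.7 and 24.4 and a log2 difference of -0.31 ± 0.11 (edgeR adjusted p = 0.108), and 8 of 9 diabetic litters lay below the normal median (exact permutation test, two-sided p = 0.130).

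In later embryos Abca3, Abcd3 and Abcf2 came nearest. Abca3 had 5.11 to 17.5 normalized counts with a median of 11.7 in normal and 10.3 to 23.6 with a median of 15.8 in diabetic pregnancies (n = 16 each), a log2 difference of 0.43 ± 0.15 (SE; edgeR adjusted p = 0.0593). Means of 6 of 6 diabetic litters lay above the normal median (exact permutation test over litters, two-sided p = 0.00874). Abcd3 had 151 to 221 with a median of 181 in normal and 112 to 212 with a median of 152 in diabetic pregnancies, a log2 difference of -0.24 ± 0.09 (edgeR adjusted p = 0.0764), with 5 of 6 diabetic litters below the normal median (exact permutation test, two-sided p = 0.0390). For Abcf2 the difference was 0.28 ± 0.11 (edgeR adjusted p = 0.0971; exact permutation test over litters, two-sided p = 0.185). Values of both conditions overlapped for each of the 3 genes. In the same embryos the 5 cardiac markers summed to medians of 691 in normal and 979 in diabetic pregnancies, and 2 of the 5 were called higher, and their part in these values was not tested. Visceral endoderm markers reached 1450 in normal and 3362 in diabetic later embryos, and without the 3 highest, all diabetic, Abca3 stood at 0.37 (edgeR adjusted p = 0.125).

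In yolk sacs the lowest adjusted p at the earlier stage was 0.609 by edgeR, for Abcb1b, with a log2 difference of 0.40. Abcc1 had 0.40 and Abcb10 -0.19 there, with exact permutation p over litters of 0.217 and 0.261. At the later stage Abca3 had 70.3 to 154 normalized counts with a median of 127 in normal and 106 to 190 with a median of 149 in diabetic pregnancies. Its log2 difference was 0.26 ± 0.10 (SE; edgeR adjusted p = 0.365), and 6 of 6 diabetic litters lay above the normal median (exact permutation test, two-sided p = 0.0186). Abca1 had a difference of 0.35 (edgeR adjusted p = 0.408). For Abcd4 it was 0.51 (edgeR adjusted p = 0.452), and 0.19 without the libraries least like their tissue. The exact permutation tests over litters were run for 12 gene and group pairs that were picked for their low p, so their values describe these pairs and are not adjusted.

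**Figure D5:**
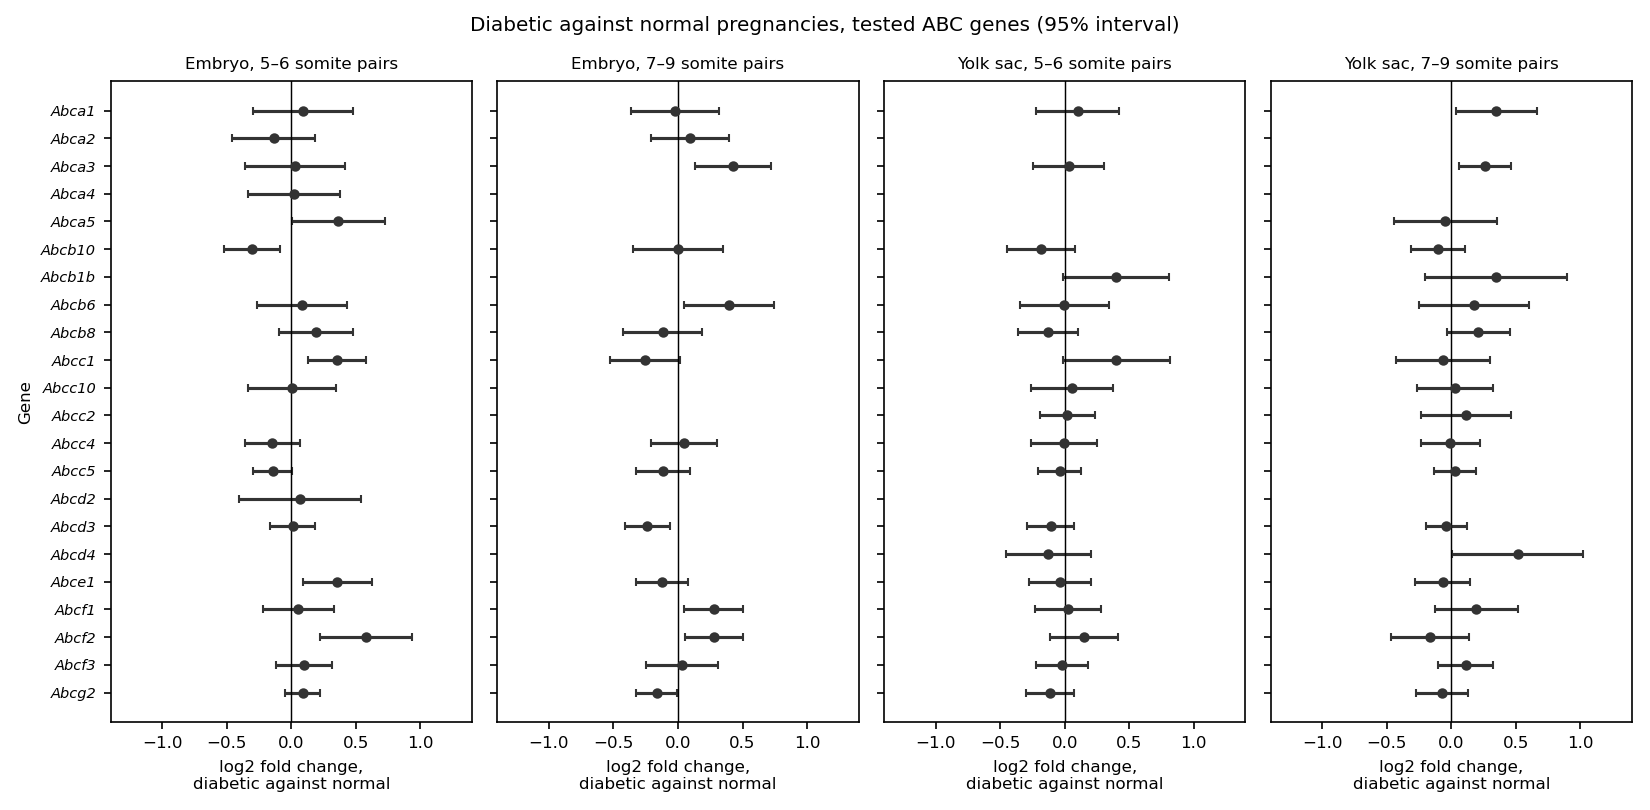
Log2 difference between diabetic and normal pregnancies for tested ABC transporter genes in the 4 combinations of tissue and stage, with 95% intervals from edgeR. All intervals stay between -1 and 1 on this scale except that of Abcd4 in later yolk sacs, and no member passed the adjusted threshold.

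Whether the diabetes difference itself varied was tested as an interaction. Between stages in embryos 1 of 20 members was called, with 8.7% over all genes and 4.35% over all genes in the same direction. This was Abcc1, whose difference was 0.35 at the earlier stage and -0.26 ± 0.14 (SE) at the later stage, where normal embryos had 24.1 to 66.2 normalized counts with a median of 41.5 and diabetic ones 15.9 to 55.8 with a median of 36.2. The change in the difference was -0.60 ± 0.17 (edgeR adjusted p = 0.0263), and -0.72 (edgeR adjusted p = 0.0112) without the 3 embryos richest in visceral endoderm transcripts. Without the filter on low counts it did not pass (edgeR adjusted p = 0.0568). Between stages in yolk sacs edgeR called 0 of 23 members, with 0% over all genes and 2 members at an unadjusted p under 0.05. Between tissues it called 0 of 21 at the earlier stage (0% of all genes, 3 members at an unadjusted p under 0.05) and 0 of 22 at the later stage (0.389% of all genes, 1 member). The member with the lowest adjusted p among these was Abcf2 at the later stage, whose diabetes difference was lower in yolk sacs than in embryos by -0.45 on the log2 scale (edgeR adjusted p = 0.185).

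Genes that work with ABC transporters were read from a list of 31. Of 24 that passed the filter at the earlier stage, 17 were higher and 3 lower in the yolk sac, with a median log2 difference of 0.60, and at the later stage 16 were higher and 2 lower of 23, where 39.4% and 39.8% of all tested genes were higher and lower at the earlier and 38.7% and 42.6% among later libraries. The scaffold protein gene Pdzk1, which anchors apical transporters, was higher in the yolk sac by 5.6 and 5.7 on the log2 scale and its partner Slc9a3r1 by 2.41 and 2.83. Apoa1 and Apoe, the acceptors of exported cholesterol, were higher by 5.53 and 3.70 at the earlier stage. Apoa1 is also one of the visceral endoderm markers. Of 7 sterol regulators 4 were higher in the yolk sac at the earlier stage, with a median of 0.45 over the list, among them the sterol sensor Nr1h3 by 1.77 and its target Mylip by 3.36, while Rxra had -0.03 and did not pass the test. The last enzyme of heme synthesis, Fech, was higher by 2.17, and all 4 genes of iron-sulfur and heme supply were higher at both stages. Of 3 genes of ribosome rescue and termination, partners of Abce1, 2 were lower in the yolk sac, Pelo by -0.25 and Hbs1l by -0.14, and Etf1 did not pass the test, with 0.06. Both peroxisome import genes, Pex3 and Pex19, were higher in the yolk sac, by 0.75 and 0.37.

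By stage, 8 of 24 of these genes rose and 2 fell in yolk sacs, where 21.7% and 18.3% of all tested genes did. In embryos 1 of 23 rose and 3 fell, where 15% and 15.8% of all tested genes did. Both scaffold genes rose in the yolk sac, Slc9a3r1 by 0.56 and Pdzk1 by 0.40, and so did both lipid acceptors. Between diabetic and normal pregnancies edgeR called none of the listed genes that passed the filter in any of the 4 comparisons, and 7 and 3 of them in earlier and later embryos and 1 and 2 in earlier and later yolk sacs had an unadjusted p under 0.05. The interaction of diabetes and stage in embryos was called for 3 of 23 listed genes, with 8.7% over all genes tested. These were Nr1h3 at 0.91, its partner receptor gene Rxra at 0.52 and Hbs1l at 0.40. Further genes of the superfamily with other symbols, Cftr, Tap1 and Tap2, and the potassium channel pores Kcnj8 and Kcnj11 did not pass the filter, nor did the xenobiotic receptors Nr1i2 and Nr1i3.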

How the data were processed

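The authors dissected embryo and yolk sac, prepared QuantSeq 3′ FWD libraries with molecular identifiers, and deposited raw counts of molecules per gene. The submitters' processing notes name STAR, HTSeq and mm10. Versions and HTSeq's strand setting are not given in the sources used here, and 11 members overlap exons of a gene on the opposite strand, among them Abca3, Abcb10 and Abcc10. Of 136 libraries, 4 batch-control duplicates were left out. Groups followed the labels for tissue, somite number and maternal condition.

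Counts were filtered with filterByExpr (minimum count 10) and tested with edgeR 4.0.16 under R 4.3.3 (glmQLFit, glmQLFTest, TMM, Benjamini-Hochberg over all genes tested, threshold 0.05). Tissues and stages were compared over both maternal conditions, with the condition in the model. DESeq2 1.42.0 gave size factors and an alternative test, and limma 3.58.1 a fit with litters as a random block. Correlations used 100000 permutations. Scripts were tested on simulated data. Littermates share a dam and are not independent, so litter means were also compared by exact permutation. The embryo and the yolk sac of a conceptus share its title, and blocking on the conceptus was tried as an alternative.

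Named members were the 6 most abundant per tissue, those called (at most 12 per direction between tissues, with a mean of at least 10 in the higher tissue, and 8 between stages), and otherwise the 3 with the lowest p in a comparison. Members with fewer counts (such as Abcd2, Abca9, Abcb4, Abcb9, Abcb11, Abcg1, Abcg5, Abcg8, Abcc8 and Abcc9) or not called were named after their values were seen. The members, the lists of related and marker genes, and the tests were chosen with earlier results of these data known. The alternatives that leave out libraries least like their tissue or embryos rich in visceral endoderm transcripts (summed markers above 2000) were added after seeing these values. Some members that count in the totals are not reported here by name. Intervals on single libraries were not computed, and the depth limits what can be said of members with few counts.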

Additional observations from a re-analysis of the deposited data

Results flagged for a closer look

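In embryos the difference of Abcc1 between diabetic and normal pregnancies was not the same at both stages. The change in the log2 difference from the earlier to the later stage was -0.60. The estimated difference, diabetic minus normal, was positive at the earlier and negative at the later stage. In the main edgeR test it was called at neither stage. The test of this change passed the adjusted threshold (edgeR adjusted p = 0.0263), but not without the filter on low counts (edgeR adjusted p = 0.0568). Abcc1 was the only member called of 20, with 8.7% over all genes tested.

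The excess of the yolk sac over the embryo differed between the stages for 2 of 25 members tested, with 3.23% over all genes. The change from the earlier to the later stage was 0.43 on the log2 scale for Abcb8 and 0.32 for Abcd3, each by the test of the change itself (edgeR adjusted p = 0.0415 and 0.0103). Abcb8 did not pass with litters as a random block in limma or without the libraries least like their tissue (edgeR adjusted p = 0.0563), and neither gene passed without the filter on low counts. Visceral endoderm and erythroid marker sums rose in yolk sacs between the same stages, and their part in these values was not tested.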

How the results depend on the processing

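Of 785 log2 differences recomputed under the alternatives for 64 named results, 767 kept their direction and their side of the threshold, 5 lost and 13 gained the adjusted threshold, and 0 changed sign. In earlier embryos DESeq2 and the test without litter D24M15 each called 1 member between diabetic and normal pregnancies, Abcc1 in both cases, and leaving out each litter in turn gave 0 to 3 (without N23M31 Abcc1 and Abcf2, without N24M21 also Abce1). In later embryos the title number as a covariate gave 1 (Abcc1, -0.38), leaving out D24M15 gave 2 (Abca3, 0.52, and Abcd3, -0.31), and leaving out each litter in turn gave 0 to 2 (without D28M24 Abcd3, without N24M21 Abca3, without N28M05 Abcb6). Between tissues DESeq2 called 30 and 33 members at the earlier and the later stage (60.6% and 68.2% of all genes). Without the filter edgeR called 33 and 37 (47% and 50.6% of all genes). Both tested more genes than the main test. With the conceptus as a replicate block 18 and 20 members were called, the same numbers as without the block. Between stages in embryos, leaving out the 3 embryos with most visceral endoderm counts gave 5. For the interaction of diabetes and stage in embryos the test without the filter gave 0, and the fits with litters as a random block or the title number as a covariate gave 2 (Abcc1 and Abce1). For the interaction of tissue and stage the test without the filter gave 0, and the litter block and the test without the libraries least like their tissue each gave 1 (Abcd3). For alternatives without a share over all genes beside them, the counts describe the members only. The cause of these shifts was not tested. No dam contributed to both conditions, so the maternal conditions were not paired.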

Other observations

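Both tissues of 2 concepti were sequenced again as batch controls. Members with at least 40 counts summed over both libraries of a pair were used. Their median absolute log2 ratio between repeat and original was 0.206 and 0.0859 in the embryo and the yolk sac of D24M15G and 0.114 and 0.0654 in those of N28M06C. Differences between repeat and original lay outside a 95% limit of counting error for 1 of 14 members, 0 of 17, 2 of 19 and 0 of 13. Counting error alone puts some members outside such a limit, so these counts do not show variation beyond it. The largest ratio was 0.577, for Abcc4 in the embryo of D24M15G. All of these ratios were smaller than the log2 differences of Abcc2, Abca3 and Abcb10 between yolk sac and embryo.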
